A study of Homo sapiens with 4 samples.

Results

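The genes described here are the dispersed nuclear tRNA genes, those that lie neither on chromosome 1 nor in the large tRNA gene cluster of chromosome 6. They were the RefSeq (GRCh38.p14) genes of biotype tRNA on chromosomes 2 to 5 and 7 to 22, plus those of chromosome 6 that start outside 25000000 to 30000000, without the mitochondrial genes. The rule gave 197 genes, of which 196 were analysed, out of 442 nuclear tRNA genes on the assembled chromosomes. The remaining gene, TRA-CGC5-1, is listed among alternate sequences and was not analysed here. The 196 genes lay on 20 chromosomes, belonged to 22 isotypes with 48 anticodons, and were 70 to 94 bp long with a median of 73 bp.

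Chromatin immunoprecipitation followed by sequencing (ChIP-seq) had been carried out with an antibody against the HA tag in K562, a human leukaemia cell line. The cells were untreated and overexpressed either HA-tagged PHF6, a chromatin-associated protein with PHD-like zinc fingers that is mutated in T-cell acute lymphoblastic leukaemia, or HA. The labels give 1 ChIP library titled HA and 1 titled WT, each with its own input, and do not say which of these cell lines each title stands for, so the libraries are named here only by their labels. With 1 library per condition there was no replicate check and no test between the libraries, and the 95% Wilson intervals below cover counting error over genes only. The library labelled HA held 16132466 tags against 23134375 in its input, and the library labelled WT held 22257947 against 24567954. Both peak lists were called by the authors at a p-value of 0.005 that was not adjusted, which gave 12662 HA peaks and 6874 WT peaks.

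Transfer RNA genes are transcribed by RNA polymerase III. Their promoter lies inside the gene, as an A box near the 5′ end and a B box further downstream, both bound by the factor TFIIIC, which in turn places TFIIIB just upstream of the gene. A gene name holds the amino acid in 1 letter, the anticodon, a number for the sequence of the mature tRNA and a number for the copy, so that TRP-TGG3-2 and TRP-TGG3-5 are copies of a proline tRNA with anticodon TGG. Genes that share a numbered name are called copies in what follows.

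The sequence was read for 6 of the 196 genes, those that lie wholly in a RefSeq promoter window (250 bases before to 50 after the start of another gene) and that hold the B box motif. They are shown because they include a pair of identical copies with and without a peak, and a gene with a peak in both libraries. Capitals mark the start of the A box (TNGNNNA, sought in the first 25 bases) and of the B box (GGTTCNA), which were sought on both strands and do not overlap each other. Each sequence is written 5′ to 3′ on the strand on which the B box matched.
TRP-TGG3-2: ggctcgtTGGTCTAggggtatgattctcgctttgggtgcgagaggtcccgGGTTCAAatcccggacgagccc
TRP-TGG3-5: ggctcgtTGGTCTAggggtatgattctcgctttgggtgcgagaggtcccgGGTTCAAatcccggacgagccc
TRG-CCC2-2: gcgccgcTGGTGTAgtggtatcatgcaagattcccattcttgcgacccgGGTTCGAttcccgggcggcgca
TRR-ACG2-1: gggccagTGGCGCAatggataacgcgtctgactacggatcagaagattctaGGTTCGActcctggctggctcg
TRF-GAA1-5: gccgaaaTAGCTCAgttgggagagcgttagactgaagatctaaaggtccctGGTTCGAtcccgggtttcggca
TRH-GTG1-9: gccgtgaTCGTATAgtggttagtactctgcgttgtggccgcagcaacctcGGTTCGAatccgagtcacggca
In GRCh38.p14 these lie at chr14:20684016-20684087 (plus strand, promoter window of ANG), chr16:3188094-3188165 (plus, OR1F1), chr16:636736-636806 (minus, LOC100287175), chr3:45688999-45689071 (minus, LIMD1-AS1), chr13:94549650-94549722 (minus, LOC124903191) and chr15:45201151-45201222 (plus, SHF). Of all 35116 promoter windows, 8.23% held the letters of the B box and 97.5% those of the A box, which are loose enough to occur almost anywhere. The first pair of proline genes did not differ at any of their 72 bases. TRP-TGG3-2 had a peak of 32 tags with a fold enrichment of 10.2 in the library labelled HA, whereas TRP-TGG3-5 had no peak in either library. The other genes had HA fold enrichments of 7.99 (TRG-CCC2-2, glycine), 7.82 (TRR-ACG2-1, arginine), 6.81 (TRF-GAA1-5, phenylalanine) and 5.81 (TRH-GTG1-9, histidine). Fold enrichment is the authors' ratio of the tag pileup at the summit to the local background estimated from the input, each plus 1.

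In the library labelled HA, 69.4% of the dispersed tRNA genes (136/196, interval 62.6 to 75.4%) overlapped a peak, when compared with 4.08% (8/196, 2.08 to 7.85%) in the library labelled WT. Among all 59533 RefSeq genes, which include the tRNA genes and are mostly far longer, 9.67% overlapped an HA peak and 4.53% a WT peak. Among the 2663 RefSeq genes that are not tRNA genes and are no longer than the longest member, the shares were 0.676% and 0.113%. The HA peaks had a median fold enrichment of 6.07 (range 2.12 to 12.4) and a median pileup of 23.5 tags (range 4 to 58). With peaks of −log10 q of at least 5 only, 95 genes (48.5%, 41.6 to 55.4%) kept an HA peak and 0 a WT peak, which allows up to 1.92% by the same interval, beside 0.412% and 0.0437% of all RefSeq genes and 0.3% and 0.0376% of the short genes. With peaks of a fold enrichment of at least 5, 90 genes kept an HA peak and 0 a WT peak, beside 0.375% and 0.0269% of all RefSeq genes and 0.263% and 0% of the short genes. The same genes were scored in both libraries, and the intervals do not cover variation between libraries, so they do not test the difference between the labels. The library labelled WT was the deeper of the pair, and at the genome-wide background a peak needed at least 6 tags in it, against 4 in the library labelled HA. A peak only in the library labelled HA was found at 128 genes. The matching share of all RefSeq genes was not counted, so this number alone does not show how far these genes differ from others.

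The dispersed tRNA genes made up a small part of the HA peak list and a large part of its top. They took 134 of the 12662 HA peaks (1.06%), 89 of the 300 peaks with −log10 q of at least 5 (29.7%), 83 of the 183 with a fold enrichment of at least 5 (45.4%) and 51 of the 100 with the highest fold enrichment. Other tRNA genes took 32 more of these 100. The median HA peak at a dispersed tRNA gene held 23 tags over a background of 3.15, with a fold enrichment of 5.78, whereas the median HA peak at no tRNA gene held 5 tags over 1.05, with a fold enrichment of 2.93. In the library labelled WT, 7 of 6874 peaks lay at these genes, and their median fold enrichment of 2.80 was near the 2.84 of the peaks at no tRNA gene. In the cluster of chromosome 6, 63.9% of the genes (92/144, 55.8 to 71.3%) had an HA peak, an interval that overlaps that of the dispersed genes, at a lower median fold enrichment of 4.41. On chromosome 1, 27.6% (27/98, 19.7 to 37.1%) had one, an interval below that of the dispersed genes, with a median fold enrichment of 6.14 among the genes with a peak. Neither difference was tested, since copies and neighbouring genes are not independent. By the names of the alignments, only uniquely mapped reads entered the peak calls, and how many reads each set lost was not tested.

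**Figure D1:**
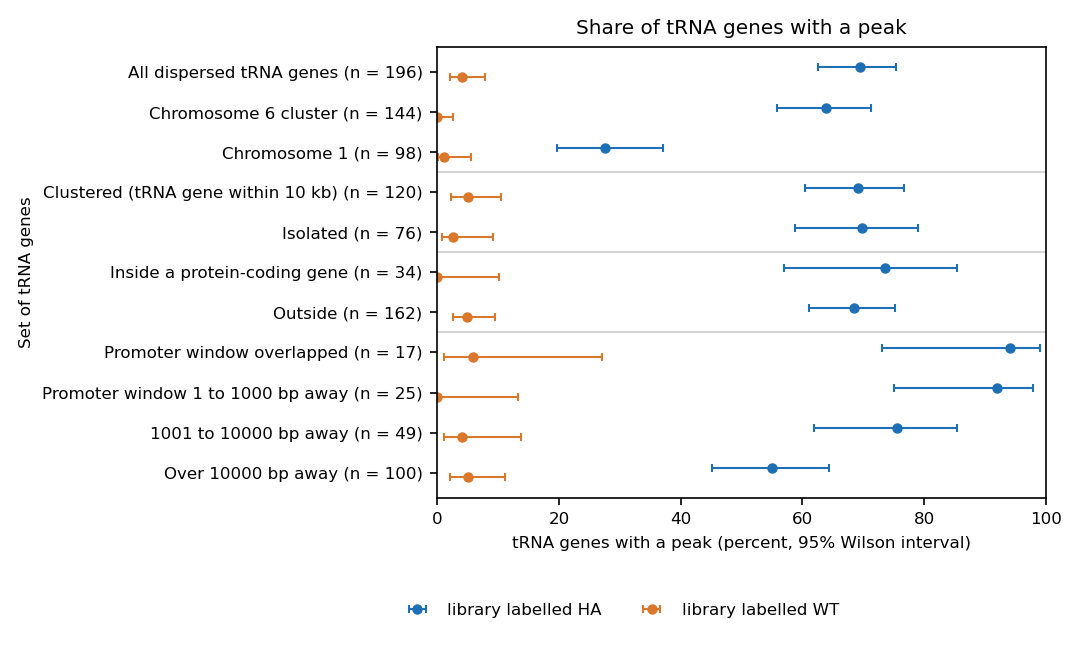
Share of tRNA genes with a peak (x axis, percent) in sets of tRNA genes (y axis), with 95% Wilson intervals, in the library labelled HA (blue) and the library labelled WT (orange). The dispersed genes sit at 69.4% and 4.08%, clustered and isolated genes overlap, and the share labelled HA is 94.1% at genes that overlap a promoter window and 55% at genes over 10000 bp from one.

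The HA signal was centred on the genes themselves. The nearest summit lay inside the tRNA gene at 116 of the 136 genes with a peak, within 50 bp of its middle at 121 and within 100 bp at 131, with a median distance of 16.5 bp. At the 110 genes that were alone in their peak region, 95 summits were inside the gene, and the farthest was 151 bp from its middle. Peaks of the latter genes were 201 to 486 bp long with a median of 302 bp, so that the A box and the B box could not be told apart by position. The region covered the whole gene at 135 of the 136 genes, the exception being TRV-TAC2-1. The other 26 genes shared 12 regions. In the region of chromosome 17 that holds TRT-AGT1-2, TRS-AGA2-6 and TRI-AAT4-1 there were 3 summits, whereas TRF-GAA1-6 and TRN-GTT2-6 on chromosome 19 had 1 summit between them. In these regions each gene is given the value of the summit with the highest −log10 p, which for 11 genes was not the summit nearest to them. With the nearest summit the median fold enrichment of all genes with a peak was 5.78 in place of 6.07, and 90 genes in place of 95 reached a −log10 q of at least 5.

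**Figure D2:**
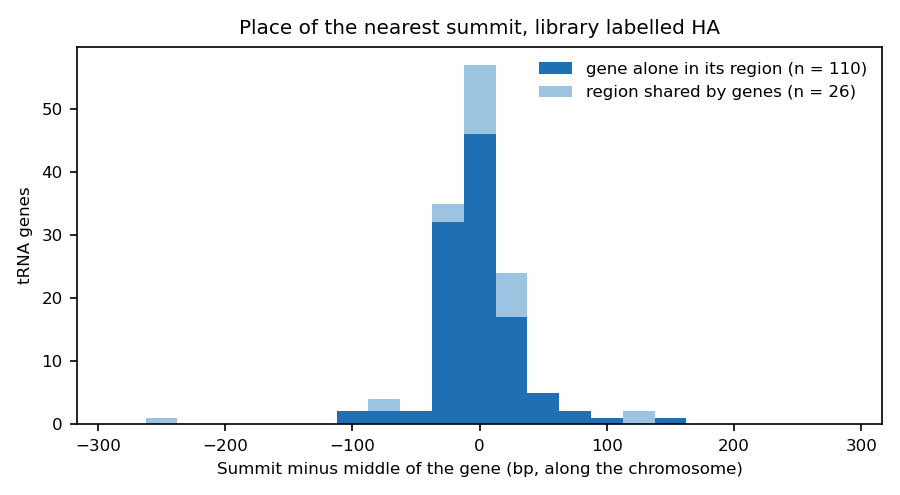
Distance along the chromosome (x axis, bp) from the middle of the tRNA gene to the nearest HA summit, as numbers of genes in 25 bp bins (y axis), for 110 genes alone in their region (dark) and 26 genes that share one (light). Most summits fall in the 3 bins around the middle, and 121 of the 136 lie within 50 bp of it.

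By fold enrichment the highest HA peak was at TRP-AGG2-3, a proline gene on chromosome 7, with 48 tags and a fold enrichment of 12.4, followed by the cysteine gene TRC-GCA2-4 on chromosome 17 (12.1, 45 tags). The elongator methionine gene TRM-CAT1-1 in TBC1D31 and the serine gene TRS-TGA1-1 on chromosome 10 each had 41 tags and a fold enrichment of 11.9. The proline genes TRP-AGG2-4 and TRP-TGG2-1, neighbours on chromosome 11, shared a region whose higher summit reached 52 tags and 11.8. Its lower summit, the nearer to TRP-AGG2-4, reached 36 tags and 8.21. The rest of the 10 genes with the highest fold enrichment were the tyrosine gene TRY-GTA5-1 in TRIM55 (11.3), the glutamate gene TRE-TTC1-1 on chromosome 2 (10.6), the methionine gene TRM-CAT6-1 in FBXO31 (10.6) and the phenylalanine gene TRF-GAA1-4 on chromosome 12 (10.5). These 10 genes came from 7 isotypes and 8 chromosomes. By −log10 q the summit at TRP-TGG2-1 was higher than that of TRP-AGG2-3, at 35.5 against 34.3, and by pileup the highest was the summit at TRL-CAG2-1 on chromosome 16, with 58 tags. Of these 10 genes, 1 had a WT peak.

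At the other end of the list were TRG-GCC2-6 in HES7 and TRK-CTT4-1 in OR1F1, each with 11 tags and a fold enrichment of 2.67. The 3 valine genes TRV-CAC1-4, TRV-AAC1-1 and TRV-TAC2-1 had fold enrichments of 2.64, 2.44 and 2.12. TRV-AAC1-1 held 4 tags, which is the lowest pileup in the whole HA list. The −log10 q of these valine genes was 0, so that none of the 3 would pass a threshold adjusted for the number of positions tested.

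All 8 genes with a WT peak also had an HA peak, and the fold enrichment was higher in the library labelled HA at each of them. The proline gene TRP-TGG2-1 had 52 tags and a fold enrichment of 11.8 under the HA label, and 20 tags and 3.85 under the WT label. The alanine gene TRA-TGC3-1 on chromosome 5 had 37 tags (7.94) and 12 tags (2.02). The arginine gene TRR-ACG2-1, whose sequence is given above, had 45 tags (7.82) and 13 tags (2.53). At these 3 genes the HA fold enrichment was 3.07, 3.93 and 3.09 times the WT value. The leucine genes TRL-CAG2-1 and TRL-CAG2-2 on chromosome 16 shared 1 region in each library. The HA summit with the highest −log10 p lay in TRL-CAG2-1 (58 tags, 7.40), and the single WT summit (19 tags, 2.97) was 424 bp away from it, nearer to TRL-CAG2-2. The HA summit in TRL-CAG2-2, 65 bp from the WT summit, held 41 tags (9.36). The leucine gene TRL-TAG1-1 on chromosome 17 had 22 tags (6.07) against 7 tags (2.26). The initiator methionine gene TRX-CAT1-8, the single initiator gene in the set, had the highest WT fold enrichment of the 8, 4.15 with 13 tags, against 5.78 with 33 tags. The valine gene TRV-AAC1-3 on chromosome 5 had 17 tags (4.01) against 12 tags (2.80). The last pair of genes had the smallest ratios of HA to WT fold enrichment, 1.39 and 1.43. Pileups are not scaled between libraries, and fold enrichment is relative to each library's own input. The −log10 q of the WT peaks was low, at 3.13 for TRP-TGG2-1, 1.99 for TRX-CAT1-8 and 1.13 for the shared leucine region. At the remaining genes it was 0 to 0.22.

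Nearly every isotype and anticodon was represented among the genes with an HA peak. Of the 22 isotypes, 21 had at least 1 such gene, and of the 48 anticodons 44 did. All asparagine genes (4/4), aspartate genes (5/5) and glutamate genes (5/5) had a peak. The 5 glutamate genes also had the highest median fold enrichment of any isotype with at least 5 genes with a peak, 9.87 (range 4.22 to 10.6), with either choice of summit. Serine genes had a median of 8.07 over 6 of 9 genes, which was 6.73 with the nearest summit, and alanine genes one of 6.89 over 6 of 10, which was 4.05 with the nearest summit. In contrast, the 10 of 13 valine genes and the 12 of 16 lysine genes with a peak had medians of 3.90 and 4.27. Methionine elongator genes were split, with TRM-CAT1-1 and TRM-CAT6-1 among the 10 highest by fold enrichment and TRM-CAT2-1 and TRM-CAT7-1 without a peak. The ranges of the isotypes overlapped widely, and the smaller groups leave wide intervals (asparagine 51 to 100%).

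Both selenocysteine genes lacked a peak in either library. They are TRU-TCA1-1 on chromosome 19 and TRU-TCA2-1 in PARVB on chromosome 22. RefSeq lists both as tRNA genes, named after the tRNA that inserts selenocysteine at recoded UGA codons. Whether each of them makes a functional tRNA was not tested. The selenocysteine tRNA gene is a textbook exception in that its transcription depends on elements upstream of the gene. Of the 5 tryptophan genes, TRW-CCA2-1 on chromosome 17 had 25 tags (4.42) and TRW-CCA4-1 on chromosome 12 had 20 tags (3.19), whereas TRW-CCA1-1, TRW-CCA3-3 and TRW-CCA5-1 had none. The other anticodons without any peak were serine CGA (0/2), leucine CAA (0/1) and the tyrosine anticodon ATA (0/1). With so few genes, 0 of 2 allows a share of up to 65.8%. Alanine AGC genes had a peak at 2 of 6, when compared with 3 of 3 alanine TGC genes. Of the AGC genes without a peak, TRA-AGC24-1, TRA-AGC13-2 and TRA-AGC12-3 lie in the second chromosome 6 group described below, so anticodon and place cannot be told apart. Of the leucine genes, 3 of 6 with anticodon AAG had a peak, as did all 3 with TAG. The AAG genes with a peak were the copies of TRL-AAG2, and those without were the copies of TRL-AAG1.

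**Figure D3:**
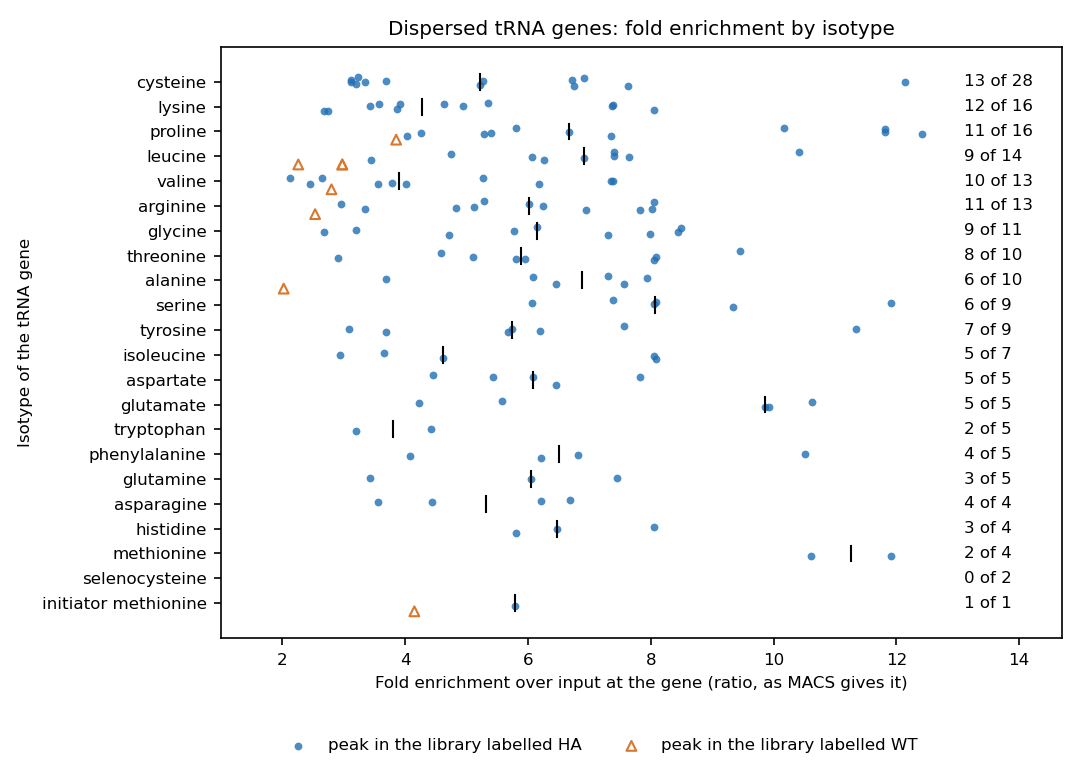
Fold enrichment over input (x axis, ratio) at each dispersed tRNA gene with a peak, by isotype (y axis), in the library labelled HA (blue points, black line at the median, each gene at the summit with the highest −log10 p in its region) and the library labelled WT (open triangles), with the number of genes with an HA peak out of all genes of the isotype on the right. Cysteine has the lowest share among the 5 largest isotypes (13 of 28), and both selenocysteine genes have no point.

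Cysteine was the largest isotype, with 28 genes that all carry the anticodon GCA, and 46.4% of them (29.5 to 64.2%) had an HA peak. This share was uneven between chromosomes, a split made after the data were seen. On chromosome 7, 6 of 18 cysteine genes had a peak (33.3%, 16.3 to 56.3%), with fold enrichments of 3.11 to 6.91. On chromosome 17, 5 of 5 did, with fold enrichments of 5.23 (TRC-GCA4-1), 6.71 (TRC-GCA14-1), 6.75 (TRC-GCA2-2), 7.63 (TRC-GCA2-3) and 12.1 (TRC-GCA2-4). Elsewhere TRC-GCA2-1 on chromosome 4 (3.12) and TRC-GCA5-1 on chromosome 15 (3.23) had a peak. TRC-GCA6-1 and TRC-GCA9-1 on chromosome 3 and TRC-GCA8-1 on chromosome 14 had none. The chromosome 7 genes span 398 kb. Those with a peak were found at both ends, and the strongest were the last in the row, TRC-GCA17-1 (41 tags, 5.27) and TRC-GCA9-4 (30 tags, 6.91). The genes from TRC-GCA18-1, at 65.6 kb from the first gene, to TRC-GCA19-1, at 303 kb, all lacked one. Without the chromosome 7 cysteine genes the overall share was 73.0% (130/178).

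Copies with the same numbered name did not always behave alike. There were 30 names with at least 2 copies among the dispersed genes, covering 93 genes. All copies had an HA peak in 19 names, and none had one in 1 name, TRL-AAG1, with 3 leucine genes on chromosome 5. The other 10 names held both kinds. Among the 5 copies of TRP-TGG3, TRP-TGG3-2 on chromosome 14 had 32 tags (10.2), TRP-TGG3-1 on chromosome 5 had 32 tags (7.36) in a region shared with TRV-AAC2-1, and TRP-TGG3-3 on chromosome 16 had 18 tags (6.67), whereas TRP-TGG3-4 and TRP-TGG3-5, also on chromosome 16, had no peak. The 5 copies of TRY-GTA5 all had a peak, yet at fold enrichments from 3.09 (TRY-GTA5-3) to 11.3 (TRY-GTA5-1). The 4 copies of TRC-GCA2 ranged from 3.12 on chromosome 4 to 12.1 on chromosome 17. By the alignment names in the file headers, only uniquely mapped reads without duplicates entered the peak calls, so reads that fit several copies are missing from these values, and how many each copy lost was not tested.

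The share of genes with an HA peak also differed with the number that the name gives to the mature sequence, a split that was chosen after the data were seen. Genes numbered 2 had a peak in 94.2% (49/52, 84.4 to 98.0%) and genes numbered 1 in 67.9% (38/56, 54.8 to 78.6%). Those numbered 3 to 5 had one in 72.2% (39/54) and those numbered 6 or more in 30.3% (10/33, 17.4 to 47.3%). Leaving out cysteine, which holds most of the highest numbers, gave 30.8% (4/13, 12.7 to 57.6%) for the last set. Copies of a name were counted separately, 6 of them for TRP-AGG2 alone. Since copies are not independent, these intervals are likely too narrow.

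**Figure D4:**
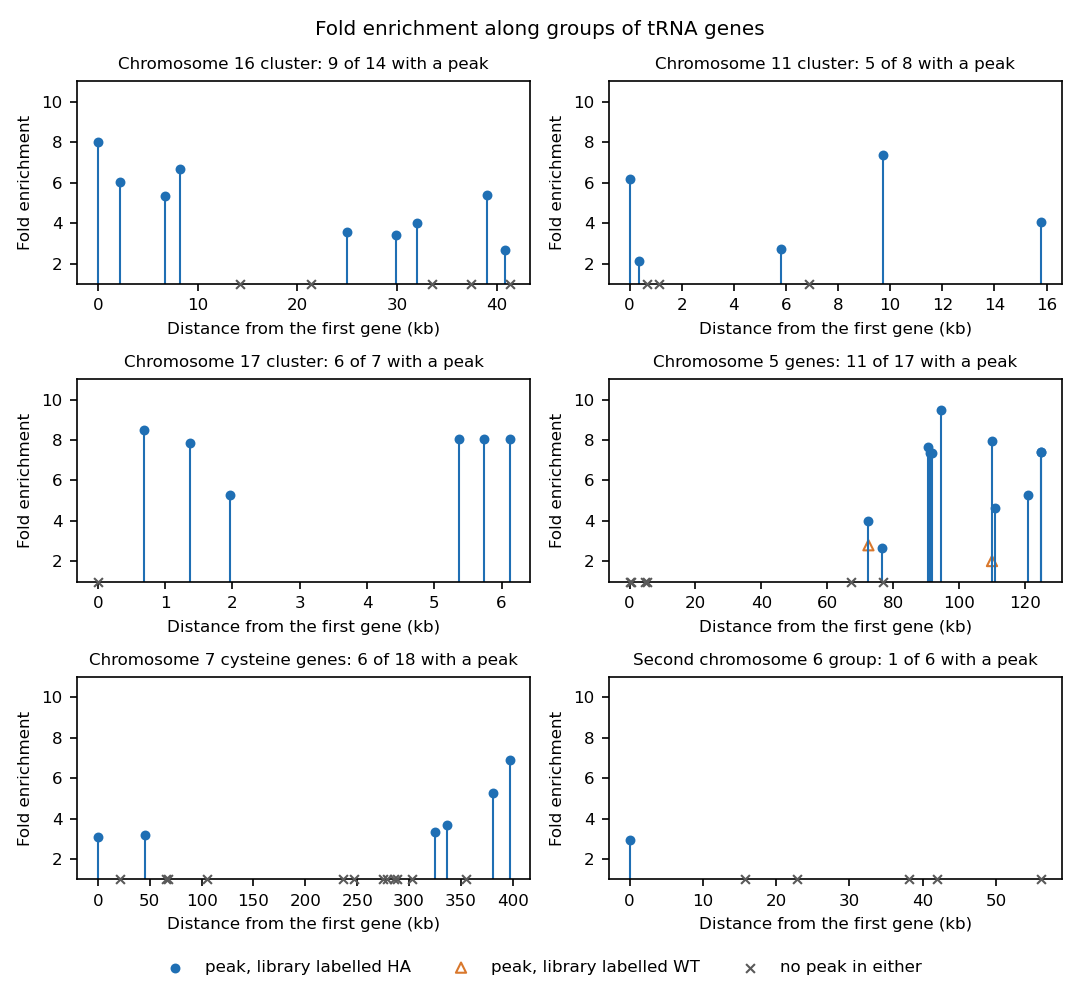
HA fold enrichment (y axis, ratio) along 6 groups of dispersed tRNA genes, against the distance from the first gene of the group (x axis, kb), with WT peaks as open triangles, genes without a peak as crosses on the axis and genes that share a region at its highest summit by −log10 p. In the chromosome 5 group the genes from 90.6 kb onwards all have a peak, and in the chromosome 7 group the peaks lie at the ends.

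Clusters were formed by tRNA genes within 10 kb of each other, which gave 120 clustered and 76 isolated genes. An HA peak was found at 69.2% of the clustered genes (83/120, 60.4 to 76.7%) and at 69.7% of the isolated genes (53/76, 58.7 to 78.9%). The difference was −0.57 percentage points (interval −13.2 to 12.8), so no difference was detectable at this number of genes. Median fold enrichments were 6.21 and 5.27, or 5.81 and 5.27 with the nearest summit. With a limit of 1 kb, 74 genes were clustered and the difference was 14.4 points (1.14 to 26.3) in favour of clustered genes, a count in which neighbours can share a region. A WT peak was found at 6 clustered and 2 isolated genes.

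The largest cluster, 14 lysine, proline and arginine genes over 41.4 kb at chr16:3150674-3192060, had an HA peak at 9 genes. The first 4 genes all had one, at TRR-CCG1-3 (35 tags, 8.02), TRR-CCT3-1 (26 tags, 6.02), TRK-CTT3-1 (23 tags, 5.35) and TRP-TGG3-3 (18 tags, 6.67). The other 5 genes with a peak were TRP-AGG2-8 (5.39), TRP-AGG2-7 (4.03), TRK-CTT2-5 (3.57), TRK-CTT5-1 (3.43) and TRK-CTT4-1 (2.67). TRK-CTT8-1, TRP-CGG1-2, TRP-TGG3-4, TRP-TGG3-5 and TRP-AGG1-1 had none. Beyond the first 4 genes, genes with and without a peak thus lay among each other.

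The chromosome 11 cluster, 8 genes at chr11:59550629-59566452, had a peak at 5 genes. TRK-TTT3-4 (26 tags, 7.37) and TRV-TAC1-1 (31 tags, 6.17) were the highest, followed by TRF-GAA2-1 (4.08), TRK-TTT5-1 (2.74) and TRV-TAC2-1 (2.12), whereas TRR-TCT3-2, TRL-TAA3-1 and TRF-GAA1-3 had none. In the chromosome 17 cluster, 7 genes at chr17:8220869-8227064, a peak was found at all genes but the tryptophan gene TRW-CCA1-1. TRG-TCC3-1 reached 8.50, TRD-GTC2-11 reached 7.83 and TRP-CGG1-3 reached 5.28, and the 3 genes TRT-AGT1-2, TRS-AGA2-6 and TRI-AAT4-1 shared a region. The summits at TRT-AGT1-2 and TRI-AAT4-1 each had 24 tags (8.06), whereas the summit at TRS-AGA2-6 had 10 tags (2.12) and a −log10 q of 0. None of the genes of these 3 clusters had a WT peak.

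On chromosome 5, 17 genes lie within 125 kb and form several clusters, and 11 of them had an HA peak. The 4 genes of the first cluster had none. They are copies of TRV-CAC1 and TRL-AAG1, and reads that fit several copies did not enter the peak calls. How many reads these genes lost was not tested. In the second cluster, TRV-AAC1-3 (4.01) and TRV-CAC1-4 (2.64) had a peak. The 9 genes from 90.6 kb onwards all did, with fold enrichments of 4.63 (TRK-CTT2-2) to 9.46 (TRT-TGT6-1). A second group on chromosome 6, 6 genes over 56.3 kb outside the large cluster, had 1 peak of 5 tags at TRI-AAT1-1 (2.93), at a −log10 q of 0.

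Of the 196 genes, 34 overlapped the span of a protein-coding gene, of which there were 21. An HA peak was found at 73.5% of these (25/34, 56.9 to 85.4%) and at 68.5% of the genes outside (111/162, 61.0 to 75.2%), with median fold enrichments of 6.94 and 6.04. With the nearest summit the order of the medians turned, to 5.28 inside and 5.81 outside. The difference was 5.01 percentage points (interval −12.9 to 19.1), and no difference was detectable at this number of genes. Counting genes within 5 kb of a protein-coding gene as inside gave 97 genes and a difference of 15.7 points (2.79 to 27.9). The highest values inside were those at TBC1D31, TRIM55 and FBXO31 given above, followed by TRG-GCC2-4 in VAC14 (24 tags, 8.44). Other tRNA genes in the same host could lack a peak. In VAC14, TRG-GCC2-5 had 7 tags (3.20) and TRG-GCC3-1 had no peak. In KCTD2, TRR-CCT2-1 (5.28) and TRR-TCG3-1 (5.13) had one and TRR-CCT1-1 had none. WT peaks were found at 0 of the 34 genes inside, which allows up to 10.2%, and at 8 of the 162 outside. Whether a tRNA gene lies in an intron, an exon or an untranslated region of its host was not analysed here, as the annotation used gives gene spans only.

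The distance to the nearest RefSeq promoter window, a split chosen after the data were seen, went with the share of genes with an HA peak. It was known for 191 of the 196 genes, since no windows were used for chromosome 8, where all 5 genes had a peak. Of the 17 genes that overlapped a window, 16 had a peak (94.1%, 73.0 to 99.0%), as did 23 of 25 at 1 to 1000 bp (92.0%, 75 to 97.8%). Beyond 1000 and up to 10000 bp the share was 75.5% (37/49, 61.9 to 85.4%), and beyond 10000 bp it was 55.0% (55/100, 45.2 to 64.4%). The interval of the last band lies below those of the first 2. This difference was not tested, since copies and neighbouring genes are not independent and the intervals treat them as such. Among all promoter windows 1.3% overlapped an HA peak and 0.148% a WT peak. The share beyond 10000 bp was 60.2% (50/83) without the chromosome 7 cysteine genes, and with promoters of protein-coding genes alone the shares were 9 of 10, 23 of 24, 26 of 34 and 73 of 123. In the library labelled WT the 4 bands held 1, 0, 2 and 5 genes with a peak (5.88%, 0%, 4.08% and 5%). These are too few to show whether an order exists.

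Fold enrichment among the genes with a peak did not follow the same order. Its medians in the 4 bands were 6.10, 5.74, 6.71 and 5.81, or 6.10, 5.39, 5.67 and 5.57 with the nearest summit. The highest values at genes that overlapped a window were TRM-CAT6-1 at FBXO31 (49 tags, 10.6), TRL-AAG2-4 at POLR3E (43 tags, 10.4), which encodes a subunit of RNA polymerase III, and TRP-TGG3-2 at ANG (32 tags, 10.2), which encodes angiogenin, a ribonuclease that cleaves tRNAs. The single gene in a window without a peak was TRP-TGG3-5 at OR1F1, an olfactory receptor gene. Inside OR1F1, TRP-AGG2-8 (18 tags, 5.39) and TRK-CTT4-1 (11 tags, 2.67) had an HA peak, whereas TRP-AGG1-1 had none.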

How the data were processed

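The authors aligned the reads of each library with BWA (0.7.12) and called peaks with MACS2 (2.1.0), per the labels and the file headers, from uniquely mapped reads without duplicates (by the names of the alignments), for each ChIP library against its own input at a p-value cutoff of 0.005, with tags extended to 201 bp for HA and 234 bp for WT. The deposited tables give, for each summit, the pileup (a signal of extended tags that is not scaled between libraries), the fold enrichment (a ratio over the local background), and the −log10 of the p-value and of the q-value. The genome build is not given in the sources used here. RefSeq coordinates of GRCh38.p14 were used, and the HA summits fell a median of 16.5 bp from the middle of the tRNA genes in that build.

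A gene had a peak if a peak region overlapped it by at least 1 bp, and the overlapping summit with the highest −log10 p stood for it. Shares carry 95% Wilson intervals and differences of shares Newcombe intervals, in Python (3.11.15, statsmodels 0.14.6). No test was made between the libraries, since each condition had 1 library, and the intervals treat genes as independent, which copies and neighbours are not. The overlap code was tested on simulated data. Medians of subsets by the nearest summit were added after the data were seen. Alternatives covered the threshold, the overlap, the counting of copies, the limit for clusters and the definition of host genes.

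The genes named were the 10 with the highest and the 5 with the lowest HA fold enrichment, those with a WT peak, those of the selenocysteine, initiator methionine and tryptophan isotypes and of isotypes with at most 3 genes, and those of the 3 largest clusters. Any further gene was named once its values were known. The members and lists were chosen with earlier results of these data known.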

Additional observations from a re-analysis of the deposited data

How the results depend on the processing

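The number of genes with an HA peak was 136. With a fold enrichment of 5 or more it was 90, and it was 88 when copies of a numbered name were counted once, as fewer peaks or fewer units were counted, and 95 to 137 under the other 6 alternatives. The number with a WT peak was 8, which fell to 0 at −log10 q of at least 5, as it did (0) when the fold enrichment had to reach 5, and was 6 to 9 otherwise. The median HA fold enrichment of 6.07 was 6.94 at −log10 q of at least 5, which drops the weaker peaks, and 5.78 or 5.81 with the nearest summit or with each peak counted once.

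The difference between clustered and isolated genes of −0.57 percentage points turned to 14.4 with a limit of 1 kb, to 10.4 at −log10 q of at least 5 and to 1.14 without the cysteine genes of chromosome 7, an alternative added after the data were seen. It was −4.67 with a limit of 100 kb. The cause of these turns was not tested. The difference between genes inside and outside protein-coding genes was positive under the 4 alternatives run, from 0.613 without the chromosome 7 cysteine genes to 15.7 with a margin of 5 kb.

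No paired analysis was possible because there was a single ChIP library to a condition. The lowest pileup called was 4 tags in the HA list and 6 in the WT list, and the weakest peaks passed an unadjusted cutoff only.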

Other observations

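On the same chromosomes RefSeq lists 52 tRNA pseudogenes, of which 1 overlapped an HA peak (1.92%, 95% Wilson interval 0.34 to 10.1%) and 0 a WT peak, which allows up to 6.88%. The pseudogene with a peak was TRE-CTC13-1 on chromosome 2, with 18 tags and a fold enrichment of 6.73. Its share lies far below the 69.4% of the dispersed tRNA genes, and the intervals do not overlap. Of the 4 tRNA genes of chromosome X, which belong to none of the sets above, TRV-TAC1-2 had an HA peak of 24 tags with a fold enrichment of 8.06, and the isoleucine genes TRI-GAT1-1, TRI-GAT1-2 and TRI-GAT1-3 had none in either library.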
